A study of Mus musculus with 30 samples.

Results

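The genes for the proteins of the cytosolic ribosome were followed in 30 RNAseq libraries from the mouse line 3T3-L1, preadipocytes that turn into fat cells in culture. Members were the protein-coding genes named Rps or Rpl and a number, together with Rplp0, Rplp1, Rplp2 and Rpsa, without the Rps6k kinases and without any pseudogene symbol ending in -ps, if their raw counts summed over the libraries exceeded 14. Of 392 gene rows with such symbols, 10 were kinases, 289 were pseudogenes and 7 were not protein coding, which left 86 candidates. Rpl10l, Rpl39l and Rpl3l were at or below 14 counts. The remaining 83 genes, 34 of the small subunit (Rps) and 49 of the large subunit (Rpl), were members among 20139 genes tested, and all 83 were tested. The symbol rule also admits Rps19bp1, which encodes a binding protein of Rps19, Rpl7l1, a paralogue of Rpl7, and Rps27rt, a copy of Rps27. These 3 are named after their values were seen.

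All libraries came from one purchased line cultured in adipogenic medium (insulin, dexamethasone, isobutylmethylxanthine and indomethacin) for 5 days, with 5 libraries in each of 6 groups. Control cells received no further agent. The other groups received indoxyl sulphate (IS), a toxin retained in renal failure, at 100 µM, oxidized low density lipoprotein (oxLDL) at 50 µg/mL, or pNaKtide, a cell permeant peptide directed at Src signaling through the Na,K-ATPase, at 0.7 µM, and pNaKtide was also added to IS (IS + pNaKtide) and to oxLDL (oxLDL + pNaKtide). The labels give 5 days of treatment, whereas the methods of the study give a shorter exposure. Nothing states that the 5 libraries of a group came from separate cultures, so the p-values measure the spread between these libraries, which may be technical. The comparisons asked what IS and oxLDL did to the adipocytes and whether pNaKtide altered it.

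Total counts ran from 6945498 to 15159877 per library. All 10 adipocyte markers were detected, with a summed level of 12950 to 18060 CPM (counts scaled to the size of the library), and the 7 preadipocyte markers summed to 1220 to 3059 CPM. The extraction text of the labels speaks of adipose tissue. Of 6 macrophage and leukocyte markers, which summed to 7.11 to 12.8 CPM, Ptprc and Itgam were at 0 counts, while Cd68 and Cd14 had medians of 4.44 and 4.69 CPM. Csf1r had 65 counts and Adgre1 4 counts over all libraries. A first principal component held 66.7% of the variance between libraries. On it Control replicate 1 (-23.8) lay far from the other Control libraries (5.72 to 27.2), IS replicate 4 (26.0) lay far from the other IS libraries (-33.3 to -20.7), and oxLDL + pNaKtide replicate 4 had the highest score of all (60.2) with the lowest total count. Results that rest on these libraries are given with and without them.

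Each cytosolic ribosome holds one copy of most of these proteins, and growing cells devote much of their messenger RNA to making them. The small subunit decodes the message and the large subunit joins the amino acids, and Rplp0 with Rplp1 and Rplp2 forms the lateral stalk that recruits the factors driving each step. Their messages are short, abundant and begin with a terminal oligopyrimidine (TOP) tract, a run of C and T at the start site through which mTORC1 and the protein Larp1 control their translation. Because bulk RNA was measured, fewer cells of a type and less RNA per cell cannot be told apart.

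Short pyrimidine stretches of the kind a TOP tract holds were looked for near the start sites. In the RefSeq promoter table (build GRCm38.p6, 250 bases before to 50 after each start), 63 of the 83 members were matched. The letters CTTTC, read in the sense of the RNA within 50 bases of the start, occurred in 52.4% of matched members and in 14.6% of all 27025 genes. On the opposite strand the shares were 12.7% and 13.8%. The letters CTTCC, which can share bases with CTTTC, occurred in 46.0% and 22.2%, and on the opposite strand in 34.9% and 24.8%. TATAAA occurred in 7.94% and 4.05%, and CCGGAA, searched on both strands over the whole 300 bases, in 55.6% and 16.7%. Windows of 30 bases are shown for members that the results below return to, because they carry CTTTC or, for Rpl22l1, lacked it in the searched bases and had values of the opposite sign. Capitals mark 1 match of CTTTC or TATAAA in each window, and any other match is in lower case. They lie at chr7:141447639-141447668 (+) for Rplp2, chr9:120127776-120127805 (+) for Rpsa, chr8:123102327-123102356 (+) for Rpl13, chr3:90213630-90213659 (-) for Rps27 and chr3:28805468-28805497 (+) for Rpl22l1.
Rplp2: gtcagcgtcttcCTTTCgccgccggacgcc
Rpsa: cggccgcccgtcCTTTCgcgctacccgggg
Rpl13: gacgtcacttccCTTTCgcctgattttgat
Rps27: ccgctttcgctcCTTTCcggcggtgacgac
Rpl22l1: agcacgtttttaTATAAAagcgtgcgtgcg
The median log2 fold change of members with CTTTC near the start was -0.45 in oxLDL vs Control and 0.67 in oxLDL + pNaKtide vs oxLDL, and that of members without it was -0.39 and 0.70. Members with TATAAA had -0.52 and 1.01, and those without it -0.40 and 0.67. TATAAA was also found in Rplp0, Rps2, Rps28 and Rpl36a, and Rpl22l1 carried CTTCC in the searched bases. Counted from the RefSeq start, the marked match began at 0 for Rplp2, 1 for Rps27, 22 for Rpsa, -11 for Rpl13 and -28 for Rpl22l1. A match of these letters is a description of the window and not of a bound factor or of a TOP tract.

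Taken per length, in FPKM as deposited, the members spanned a wide range although the ribosome takes up its proteins in near-equal numbers. Rplp0 had the highest median over the 30 libraries, 1143 FPKM (range 664 to 2356), followed by Rplp1 at 1045 FPKM and Rps15, a small subunit protein near the decoding centre, at 768 FPKM. These 3 ranges overlap, so that the order of Rplp0 and Rplp1 is not larger than their spread over libraries. FPKM divides by a length that followed that of all exons within 1% for 76 of the 83 members. On the length of the assigned transcript Rplp1 would rank 4 of 83 and Rps15 6, with Rplp0 still the highest. The lowest medians were those of Rpl35a (11.4 FPKM), Rpl29 (8.19 FPKM) and Rpl21 (1.10 FPKM). On transcript length Rpl29 and Rpl21 stayed the lowest and Rpl35a ranked 74. The median member had 181 FPKM, 21 members were under 100 FPKM and 2 were over 1000 FPKM.

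The 3 lowest members all had copies elsewhere in the genome. Of 82 gene families, 62 had at least 1 tested row of a named copy, mostly pseudogenes, and in 31 the copies together held more counts than the member itself. Rpl21 had 1378 counts over all libraries against 66226 on its 11 copy rows, Rpl35a had 14314 against 252901 on 6, and Rpl29 had 3395 against 6894 on 2. Copies held 49.7% of the counts on members and copies together. How reads that fit several copies were assigned is not given in the sources used here, so the level of a single member with copies is uncertain, and it is counted here as the authors' table gives it.

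**Figure D1:**
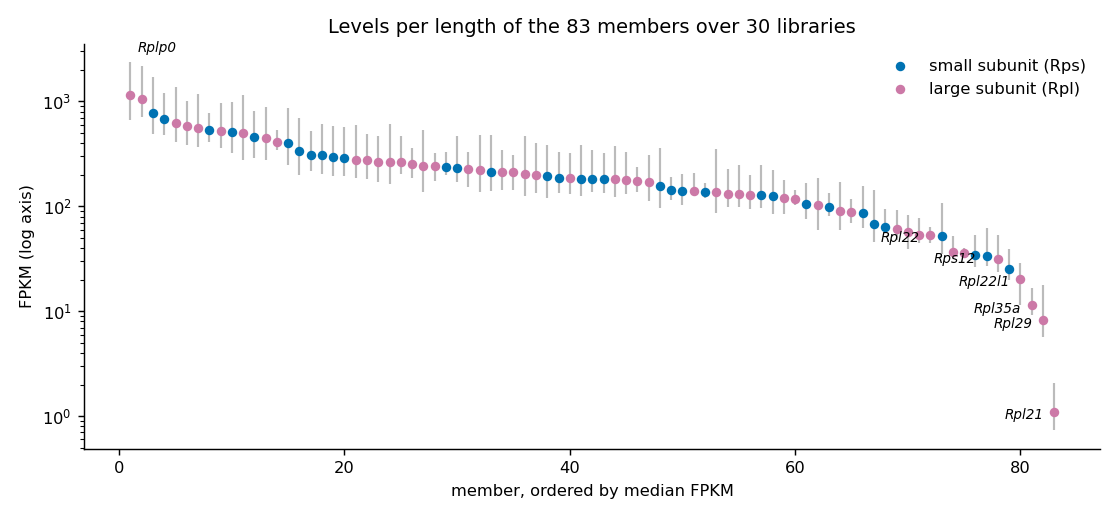
Median deposited FPKM over the 30 libraries for each of the 83 members, on a log axis, ordered from highest to lowest, with the lowest and highest library as bars. Values fall from 1143 for Rplp0 to 1.10 for Rpl21.

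Together the members took up 3.30% ± 0.41 (SD, n = 5) of all counts in Control, 3.67% ± 0.34 with pNaKtide, 2.89% ± 0.51 with IS and 2.95% ± 0.24 with IS + pNaKtide. The share was lowest with oxLDL, 2.65% ± 0.25, and highest with oxLDL + pNaKtide, 3.79% ± 0.52. By library the oxLDL shares were 2.65, 2.38, 2.83, 2.97 and 2.43%, and the oxLDL + pNaKtide shares were 3.49, 3.57, 3.61, 4.71 and 3.57%, so that these groups did not overlap. The Control shares were 2.68, 3.62, 3.15, 3.72 and 3.33%. Control replicate 1, the lowest of them, lay within the oxLDL range, and without it the Control mean was 3.46%. In IS the shares were 2.54, 2.61, 2.69, 3.78 and 2.83%, and replicate 4 was above the highest Control library; without it the IS mean was 2.67%. The pNaKtide libraries had 3.98, 4.01, 3.18, 3.59 and 3.58%, within or just above the Control range, and the IS + pNaKtide libraries had 3.05, 3.33, 2.77, 2.77 and 2.86%, all within it.

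**Figure D2:**
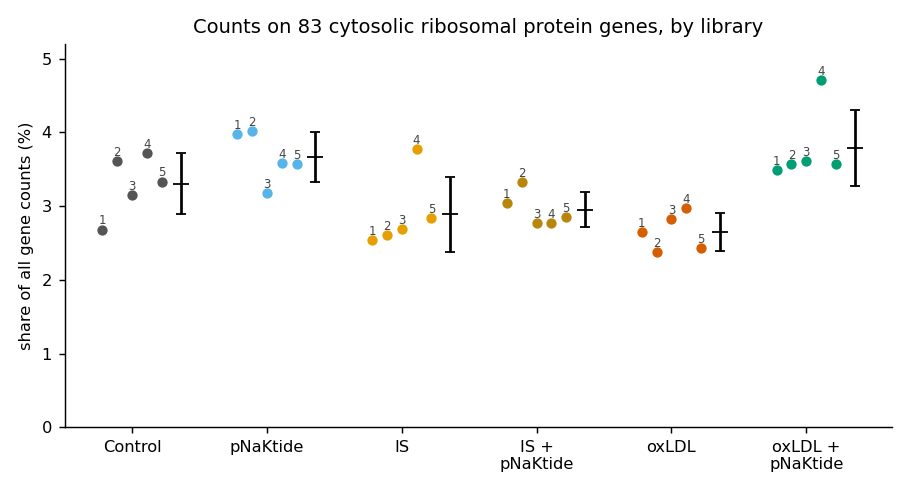
Percent of all counts that fell on the 83 members in each of the 30 libraries, by group, with the group mean and SD. The 5 oxLDL libraries (2.38 to 2.97%) all lie below the 5 oxLDL + pNaKtide libraries (3.49 to 4.71%), while Control replicate 1 and IS replicate 4 lie apart from their groups.

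In oxLDL vs Control, 66 of the 83 members fell and none rose, and the median log2 fold change of the members was -0.42 against 0.04 for all genes tested (edgeR quasi-likelihood test over all genes, Benjamini-Hochberg (BH) adjusted p threshold 0.1). Over all genes 18% were called lower and 18.1% higher. Both subunits took part, with 28 of 34 small subunit members (median -0.39) and 38 of 49 large subunit members (median -0.43) lower. For 2 of the members, Rpl24 and Rpl35a, all oxLDL libraries lay below all Control libraries, as was so for 3.52% of all genes.

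The stalk genes were all called lower, although with the GC content and length correction described below only Rplp0 was (Rplp1 -0.03, Rplp2 -0.11). Rplp0 had 1455, 2504, 2062, 2672 and 2225 CPM in Control and 1277, 1124, 1585, 1586 and 1119 CPM with oxLDL. Control replicate 1 was within the oxLDL range and the other Control libraries were above it, and the log2 fold change was -0.71 ± 0.18 (SE; edgeR BH adjusted p = 0.00957). Rplp1 changed by -0.53 ± 0.16 (edgeR adjusted p = 0.0169) and Rplp2 by -0.55 ± 0.16 (edgeR adjusted p = 0.0142). Rplp2 had 360, 529, 481, 590 and 529 CPM in Control and 320, 290, 392, 404 and 292 CPM with oxLDL, and here too only Control replicate 1 lay within the oxLDL values.

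Among other large subunit genes, Rpl24, whose protein bridges the subunits, had 94.9, 114, 112, 121 and 108 CPM in Control and 72.7, 62.2, 80.3, 90.2 and 65.7 CPM with oxLDL. Its groups were apart and it had the smallest adjusted p of the members, with a log2 fold change of -0.57 ± 0.13 (edgeR adjusted p = 0.00783). Rpl35a, one of the genes mutated in Diamond-Blackfan anaemia, had 39.1, 46.1, 44.3, 43.2 and 41.3 CPM in Control and 36.3, 33.2, 32.7, 36.7 and 36.8 CPM with oxLDL, a log2 fold change of -0.28 ± 0.09 (edgeR adjusted p = 0.0189). That change was small and the libraries did not overlap, but with the correction it was -0.07 and no longer called, against -0.24 on the length of all exons, which was called. Rpl36 had the lowest fitted value of all members, -0.78 ± 0.21 (edgeR adjusted p = 0.0106), which became -0.20 with the correction, still called. Rpl13 fell by 0.68 on the log2 scale, Rpl29 by 0.64, Rpl10, which joins the subunit late in its assembly, by 0.47, and Rpl3, which lies at the catalytic centre, by 0.44. Rpl11, which with Rpl5 forms a complex around a ribosomal RNA that can bind Mdm2, fell by 0.42 (SE 0.14, edgeR adjusted p = 0.0288), and Rpl5 had -0.11 ± 0.09 (edgeR adjusted p = 0.391). Their difference was not tested, and with the correction Rpl5 was called (-0.48) and Rpl11 was not (-0.12).

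Among small subunit genes, Rpsa, also known as a laminin receptor, had 1015, 1713, 1355, 1801 and 1517 CPM in Control and 894, 816, 1046, 1078 and 801 CPM with oxLDL. Only Control replicate 1 overlapped the oxLDL libraries, and the log2 fold change was -0.68 ± 0.17 (edgeR adjusted p = 0.00957). Rps15 fell by 0.67 on the log2 scale, Rps2 by 0.58, Rps26 by 0.56, Rps19, mutated in Diamond-Blackfan anaemia, by 0.50, and Rps3, near the entry of the message, by 0.44. Rps6, the ribosomal target of the S6 kinases, had -0.36 ± 0.12 (edgeR adjusted p = 0.0284) and Rps13 had -0.36 ± 0.14 (edgeR adjusted p = 0.0477).

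Of the 17 members that did not pass, several have a paralogue or are known for variable use. Rps27 fell by 0.49 on the log2 scale (SE 0.15, edgeR adjusted p = 0.0193), while its paralogue Rps27l, a target of the tumor suppressor Trp53, had -0.11 ± 0.09 (edgeR adjusted p = 0.355). Rpl36a fell by 0.32 (SE 0.11, edgeR adjusted p = 0.0297), and its near-identical relative Rpl36al had -0.25 ± 0.12 (edgeR adjusted p = 0.115). Rpl22 had -0.17 ± 0.08 (edgeR adjusted p = 0.124), and its paralogue Rpl22l1 was the one member with a positive value, 0.40 ± 0.20 (edgeR adjusted p = 0.128). The differences between paralogues were not themselves tested. With the correction described below, neither Rps27 (-0.15) nor Rps27l (-0.14) was called. Rpl36a (-0.24) and Rpl22 (-0.17) were then called lower, and Rpl36al (0.11) and Rpl22l1 (0.09) were not called. Rpl39, at the exit tunnel, had -0.29 ± 0.14 (edgeR adjusted p = 0.128), Rpl21 had -0.20 ± 0.18 (edgeR adjusted p = 0.429) and Rps12 had -0.10 ± 0.12 (edgeR adjusted p = 0.552). The others were Rpl4, Rpl7l1, Rpl17, Rpl23, Rpl30, Rps3a1, Rps23, Rps24 and Rps27a, named because they were not called.

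Some markers of the cells were called as well, and their part in the result was not tested. Of 10 adipocyte markers 3 were lower and 1 higher in oxLDL vs Control, where 18% of all genes were lower and 18.1% higher. Of 7 preadipocyte markers 2 were lower, among them Dlk1, an inhibitor of adipogenesis (-0.69, edgeR adjusted p = 0.0369). With the correction 3 adipocyte markers were lower and none higher, and no preadipocyte marker was called (Dlk1 -0.36, edgeR adjusted p = 0.225). Then 9.65% of all genes were lower and 9.72% higher. The preadipocyte markers summed to 2262 to 3059 CPM in Control, 1755 to 2172 CPM with oxLDL and 1697 to 2757 CPM with oxLDL + pNaKtide, and the adipocyte markers to 14496 to 16616, 14790 to 18060 and 14912 to 15919 CPM. Without Control replicate 1 the count was 72 lower with a median of -0.50, and 21.7% of all genes were lower. With scaling by library size alone, which moved the median of all genes from 0.04 to 0.17, 50 members were lower and 1 higher. Of all 20139 genes tested, 2276 were then lower and 4963 higher. The members' median relative to that of all genes was -0.45 against -0.46 in the TMM scaling. The share of higher calls among all genes called went from 50.1% to 68.6%.

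When pNaKtide was present together with oxLDL, 78 of the 83 members were higher than with oxLDL alone and 1, Rpl22l1, was lower, with a member median of 0.68 on the log2 scale against -0.09 for all genes tested. Over all genes 22.1% were called higher and 26.1% lower (edgeR, BH adjusted p threshold 0.1). The oxLDL libraries are shared with the comparison above, so that these values are not independent of those and are given side by side. In 69 members all oxLDL + pNaKtide libraries lay above all oxLDL libraries, as was so for 13.6% of all genes. Called higher were 33 of 34 small subunit members (median 0.73) and 45 of 49 large subunit members (median 0.67). Rpl39 (0.20), Rpl5 (0.15), Rps27a (0.12) and Rpl7l1 (0.09) did not pass.

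The stalk genes were all called higher, while with the correction Rplp0 and Rplp2 were and Rplp1 (0.11) was not. Rplp0 reached 2549, 2524, 2072, 3775 and 2898 CPM with oxLDL + pNaKtide, all above the highest oxLDL library of 1586 CPM, and the log2 fold change was 1.05 ± 0.18 (SE; edgeR adjusted p = 5.61e-05). Rplp2 reached 648, 616, 609, 949 and 706 CPM, a change of 1.06 ± 0.16 (edgeR adjusted p = 1.95e-05), and Rplp1 changed by 0.90 ± 0.16 (edgeR adjusted p = 6.39e-05). Replicate 4 was the highest oxLDL + pNaKtide library for all of these genes. Without it 73 members were higher and none lower, the median was 0.58, and 19.9% of all genes were higher. With all libraries 5 of 10 adipocyte markers were higher and 1 lower, and 2 of 7 preadipocyte markers were higher and 1 lower, with Dlk1 at 1.00 (edgeR adjusted p = 0.00157). Of all genes 22.1% were higher and 26.1% lower. With the correction the adipocyte counts were again 5 and 1, 2 preadipocyte markers were higher and 2 lower, and Dlk1 had 0.57 (edgeR adjusted p = 0.0246). Then 15.4% of all genes were higher and 21.6% lower. The part of the markers in the result was not tested.

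The largest rises among members whose groups did not overlap were those of Rpl13, Rpl36 and Rps2. Rpl13 had 258, 237, 259, 320 and 234 CPM with oxLDL and 527, 505, 523, 874 and 620 CPM with oxLDL + pNaKtide, a log2 fold change of 1.22 ± 0.19 (edgeR adjusted p = 2.5e-05). Rps2, a small subunit protein at the entry of the message, had 281, 260, 333, 331 and 264 CPM and then 589, 556, 515, 838 and 657 CPM, a change of 1.10 ± 0.16 (edgeR adjusted p = 1.61e-05). For both genes the lowest library with pNaKtide was well above the highest without it. Rpl36 had 125, 113, 167, 162 and 136 CPM and then 235, 237, 265, 451 and 322 CPM, a change of 1.10 ± 0.21 (edgeR adjusted p = 0.000136). With the correction Rpl36 had 0.18, which was called, and with the length of all exons 0.18, which was not (edgeR adjusted p = 0.125).

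Rpsa rose to 1704, 1706, 1564, 2651 and 1908 CPM, a log2 fold change of 1.04 ± 0.18 (edgeR adjusted p = 4.2e-05), and Rpl24 to 137, 130, 132, 184 and 130 CPM, a change of 0.94 ± 0.13 (edgeR adjusted p = 1.03e-05), the smallest adjusted p of the members. Rps26 rose by 0.99 on the log2 scale, Rps15 by 0.95, Rps19 by 0.92, Rps13 by 0.90, Rpl10 by 0.86, Rps6 by 0.73, Rpl29 by 0.66, Rpl3 by 0.63 and Rps12 by 0.59. Smaller rises that passed were those of Rpl35a (0.52), Rpl21 (0.48), Rpl11 (0.47) and Rps3 (0.36). With the correction Rpl35a (0.13), Rpl21 (0.12), Rpl11 (-0.01), Rpl29 (-0.05) and Rps12 (0.13) were no longer called, while with the length of all exons Rpl35a (0.48) and Rps12 (0.38) were. Thus, without the correction, Rps12, which had no call in oxLDL vs Control, rose here together with the genes that had fallen there.

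The differences between paralogues were not tested in this comparison either. Rps27 had 106, 94.7, 107, 134 and 89.7 CPM with oxLDL and 133, 135, 136, 226 and 146 CPM with oxLDL + pNaKtide, a log2 fold change of 0.54 ± 0.15 (edgeR adjusted p = 0.00438), with oxLDL replicate 4 inside the upper group. Rps27l rose by 0.30 (SE 0.09, edgeR adjusted p = 0.00469), Rpl36a by 0.45 and Rpl36al by 0.57. With the correction the order within these pairs turned, Rps27 having -0.03 and Rps27l 0.18, and Rpl36a 0.21 and Rpl36al 0.0024. Rpl22 rose by 0.19 (SE 0.08, edgeR adjusted p = 0.0691). Rpl22l1 had 48.2, 49.2, 46.3, 37.2 and 55.8 CPM with oxLDL and 36.1, 33.2, 55.7, 22.8 and 23.0 CPM with oxLDL + pNaKtide, a log2 fold change of -0.46 ± 0.20 (edgeR adjusted p = 0.0623). Its replicate 3 was close to the highest oxLDL library, so that the groups overlapped, and with the GC content and length correction described below its call was lost (-0.24, edgeR adjusted p = 0.177). Of 27 alternatives, 10 lost the call and 1 turned the sign. In Control it had 37.0, 31.1, 49.0, 29.5 and 32.8 CPM and with IS 57.8, 55.2, 58.3, 31.4 and 46.6 CPM, where replicate 4 was the lowest library of the group while being the highest for Rplp0 (2534 CPM against 1185 to 1436 CPM in the others).

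**Figure D3:**
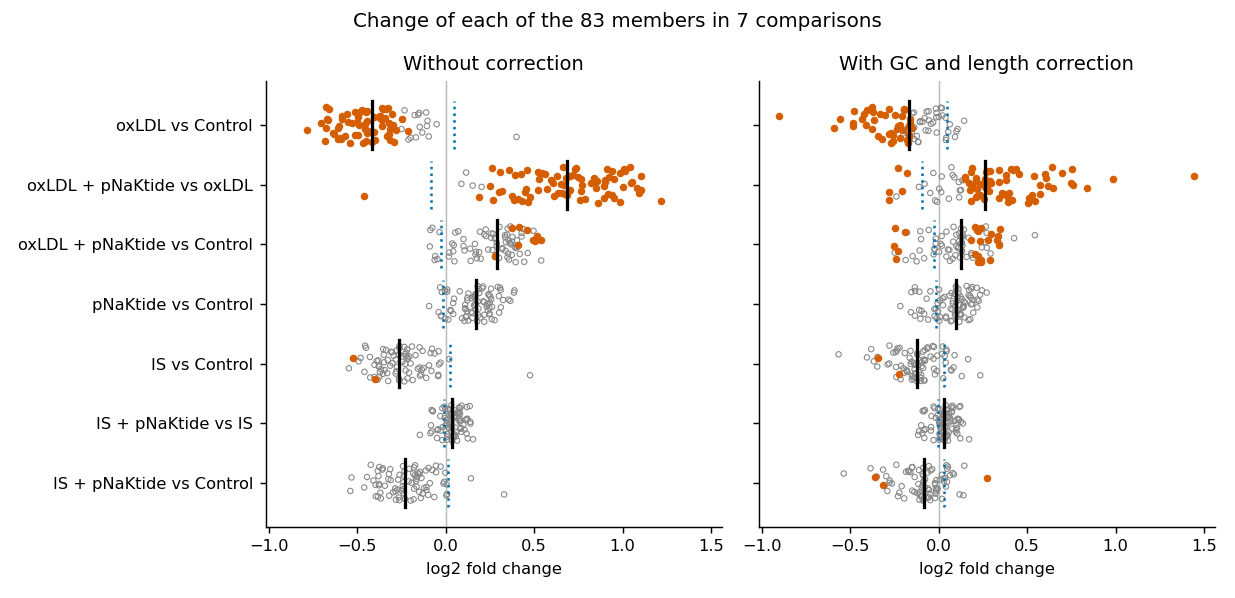
Log2 fold change of each of the 83 members in 7 comparisons, without and with the GC content and length correction. Filled points passed the test, black bars are the members' medians and dotted lines the medians of all genes; the members' medians in the top 2 comparisons are -0.42 and 0.68 without the correction and -0.17 and 0.26 with it.

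**Figure D4:**
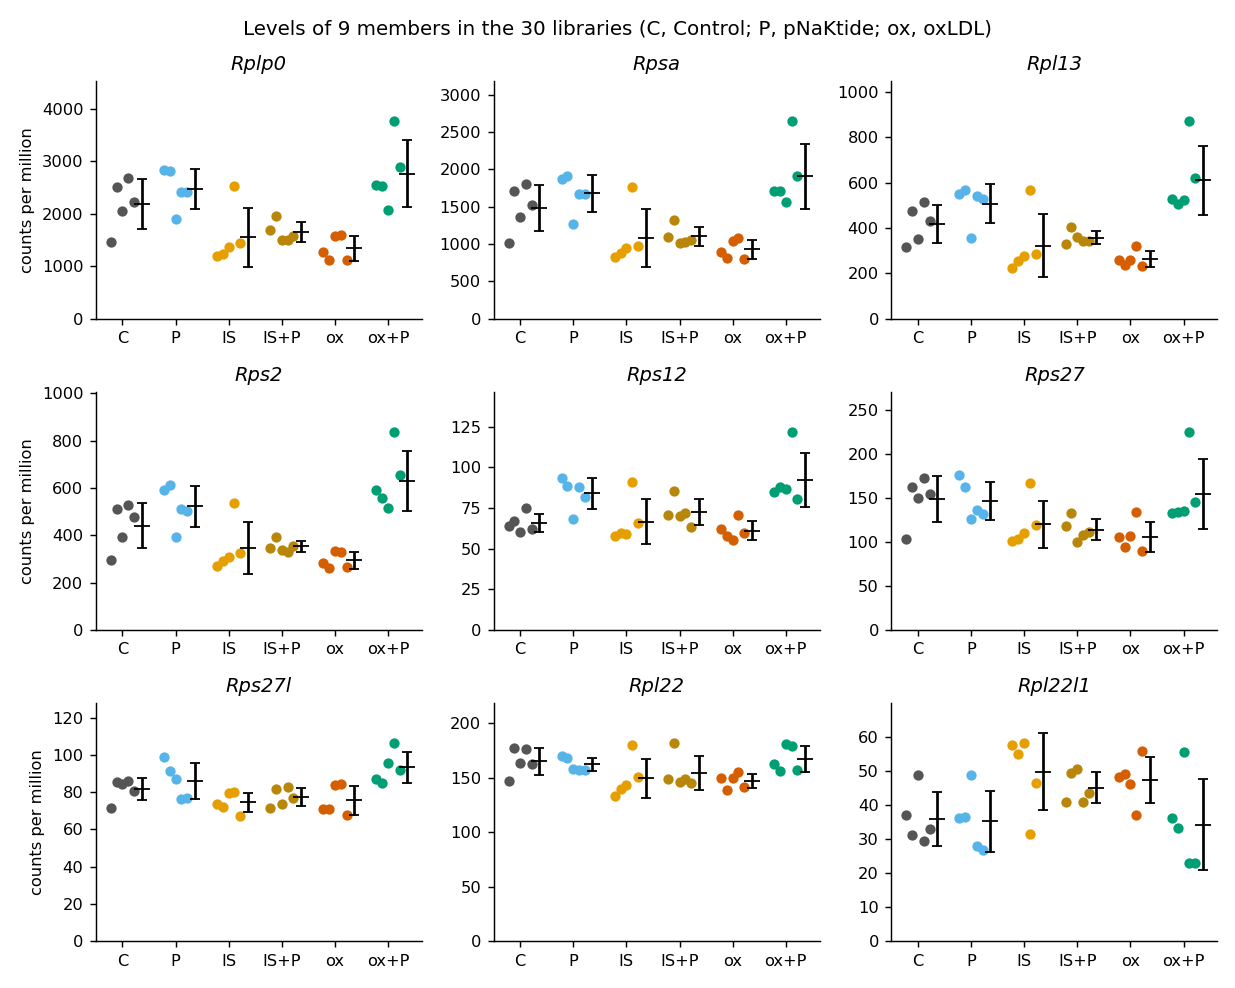
CPM of 9 members in each library of the 6 groups, on axes from 0, with group means and SD. In Rplp0 all oxLDL + pNaKtide libraries (2072 to 3775 CPM) lie above all oxLDL libraries (1119 to 1586 CPM), while in Rpl22l1 the groups overlap and the median is lower with pNaKtide.

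For IS vs Control the members' median was -0.26, and 2 of 83 were called, both lower, where 3.49% of all genes were called lower and 4.45% higher (edgeR, BH adjusted p threshold 0.1). They were Rps14, of the small subunit (-0.53 ± 0.17, SE; edgeR adjusted p = 0.0818) and Rpl13a, of the large subunit and also known as a repressor of translation when set free (-0.40 ± 0.14; edgeR adjusted p = 0.0984), named because they were the only calls. With the correction described below, Rps14 (-0.34, edgeR adjusted p = 0.028) and Rpl24 (-0.22, edgeR adjusted p = 0.0825) were called lower, Rpl13a was not (-0.22, edgeR adjusted p = 0.113), the median was -0.12 and 2.61% of all genes were lower. Rplp0 had 1185, 1235, 1370, 2534 and 1436 CPM with IS and a log2 fold change of -0.49 ± 0.18 (edgeR adjusted p = 0.108). Replicate 4 lay among the Control libraries, and the other 4 IS libraries were below every Control library. The count moved with the method and with single libraries. With all libraries DESeq2 called 19 members and 23.4% of all genes, a replicate block 28 members and 17.0%, and a fit to the compared groups alone 0 members and 0% (either direction). Without IS replicate 4 it was 72 (71 lower, 1 higher, median -0.43), where 17.3% of all genes were lower. Without Control replicate 1 it was 55 (54 lower, 1 higher, median -0.34), where 15.1% were lower. Without both it was 76 (75 lower, 1 higher, median -0.53), where 21.6% were lower, and without any one of the other 8 libraries it was 0. At an unadjusted p under 0.05 there were 33 members and 25% of all genes. With all libraries 3 of 10 adipocyte markers were lower and 1 higher, and with the correction 5 were lower and none higher. Of 7 preadipocyte markers 2 were lower without the correction and 2 with it. The part of the markers in the result was not tested.

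pNaKtide alone changed no member in this test (edgeR, BH adjusted p threshold 0.1), and in all genes 0% were called higher and 0.00497% lower. The median was 0.17, 11 members and 6.12% of all genes had an unadjusted p under 0.05, and DESeq2 and limma called 0. Rplp0 had 2827, 2807, 1898, 2418 and 2422 CPM with pNaKtide, which overlapped Control. Adding pNaKtide to IS likewise gave 0 calls among members and 0% of all genes in either direction (edgeR; 0 members at an unadjusted p under 0.05; DESeq2 and limma 0), with a median of 0.04, or 0.21 without IS replicate 4. Rplp0 had 1687, 1956, 1506, 1497 and 1575 CPM with IS + pNaKtide, above every IS library except replicate 4.

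Set directly against Control, oxLDL + pNaKtide gave 9 members higher and none lower, with a median of 0.29, where 2.04% of all genes were called higher and 3.16% lower (edgeR, BH adjusted p threshold 0.1). The count moved with the method, from 0 members and 0.0546% of all genes in a fit to the compared groups alone to 30 and 8.21% with a replicate block and 36 and 14.3% with DESeq2 (either direction), and the correction gave 18 higher and 5 lower. The members called included Rpl6, Rpl23, Rplp2, Rps2, Rps6, Rps12, Rps13 and Rps29. Rps13 had 148, 224, 204, 222 and 185 CPM in Control and 251, 253, 268, 369 and 284 CPM with oxLDL + pNaKtide, a log2 fold change of 0.54 ± 0.14 (edgeR adjusted p = 0.0263). Rps12 had 63.6, 66.9, 60.5, 74.7 and 62.0 CPM in Control and 85, 87.6, 86.6, 122 and 80.6 CPM, a change of 0.49 ± 0.12 (edgeR adjusted p = 0.0186). For both the groups were apart. Rplp2 changed by 0.50 ± 0.16 (edgeR adjusted p = 0.0793). Rplp0 and Rpl24 did not pass, Rplp0 having 0.34 ± 0.18 (edgeR adjusted p = 0.341) and Rpl24 0.37 ± 0.13 (edgeR adjusted p = 0.118). The count was 2 without Control replicate 1, 3 or 5 or oxLDL + pNaKtide replicate 4, each in turn, and 18, 25, 19 and 22 without Control replicate 2, Control replicate 4, oxLDL + pNaKtide replicate 1 and oxLDL + pNaKtide replicate 2. The shares of all genes called higher were 1.2, 1.15, 1.27 and 1.13% in the first of these sets and 2.20, 2.74, 2.26 and 3.36% in the second. For IS + pNaKtide vs Control no member was called (edgeR; 0.139% of all genes higher and 0.218% lower; 21 members and 20% of all genes at an unadjusted p under 0.05; DESeq2 4, limma 0) and the median was -0.23. Without Control replicate 1, 34 members and 12.3% of all genes were lower.

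The effect of pNaKtide differed with what the cells had received. The change with pNaKtide in oxLDL treated cells exceeded the change in cells without oxLDL for 54 members and was below it for none (median difference 0.52 on the log2 scale, edgeR, BH adjusted p threshold 0.1; 12.8% of all genes higher and 11.8% lower). It exceeded the change in IS treated cells for 69 members and was below it for none (median difference 0.62; 13.9% of all genes higher and 15.4% lower). Rpl13 had the largest of the differences from cells without oxLDL among named members, 0.94, and Rps2 the largest of those from IS treated cells, 1.07. Without oxLDL + pNaKtide replicate 4 the first count was 19, with 6.99% of all genes higher, and without Control replicate 1 it was 73, with 18.1%. It was 30, 26, 34, 33 and 24 without Control replicate 2, Control replicate 4, oxLDL replicate 2, oxLDL replicate 5 and pNaKtide replicate 3, where 8.50, 7.48, 8.68, 8.75 and 6.48% of all genes were higher, and the second count was 58 without IS replicate 4, where 8.66% were.

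The members differ from other genes in properties that libraries can read unequally. Their assigned transcripts were short, with a median of 751 bases against 2115 bases for all genes tested, and 81 of 83 were shorter than the median gene. Their median GC content was 51.8% against 50.0%, and 53 were above the median gene. Over the 30 libraries the members' share of counts went with the slope of log2 expression on transcript length, with Pearson's r = -0.93 and Spearman's rho = -0.93 (r = -0.90 without the 2 libraries farthest from the median of the slope and -0.87 after centring each group), and with the slope on GC content, with r = 0.94 and rho = 0.92 (0.94 and 0.90). The slopes were fitted without the members, but library, depth and composition are shared by both measures, so these are descriptions. Among the members, the log2 fold change went with GC content as well, r = -0.65 in oxLDL vs Control and r = 0.57 in oxLDL + pNaKtide vs oxLDL (83 genes, which are not independent).

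A trend in GC content and length, fitted in each library on genes that are no members, was therefore added to the model. With it, 41 members were lower in oxLDL vs Control and none higher, with a median of -0.17 (9.65% of all genes lower and 9.72% higher), and 59 were higher and 5 lower in oxLDL + pNaKtide vs oxLDL, with a median of 0.26 (15.4% higher and 21.6% lower). Of the 66 lower without it, 36 were lower with it and 30 were not called, and 5 more, among them Rpl5 and Rpl22, were lower only with it. Of the 78 higher without it, 58 were higher with it. The differences between effects of pNaKtide passed for 24 members (median 0.18; 5.35% of all genes higher) and 37 members (median 0.22; 7.37% higher), and oxLDL + pNaKtide vs Control had 18 members higher and 5 lower (3.81% and 5.49%).

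Members kept by the correction included Rplp0 (-0.49 ± 0.13 and 0.75 ± 0.13, in the order oxLDL vs Control and oxLDL + pNaKtide vs oxLDL), Rpsa (-0.38 and 0.64), Rpl24 (-0.34 and 0.53), Rps26 (-0.43 and 0.70), Rps3 (-0.48 and 0.42), Rpl10 (-0.27 and 0.51), Rpl3 (-0.27 and 0.40) and Rps6 (-0.20 and 0.44), all called in both. Rplp1 (-0.03 and 0.11) and Rps27 (-0.15 and -0.03) were called in neither, though Rps27 was called in the first with the length of all exons (-0.23, edgeR adjusted p = 0.0533). The fit on the length of all exons also took its trend from protein-coding genes alone, so the length was not all that changed. Rps19 (-0.01 and 0.15) was called in the second, where its value with the length of all exons was 0.53. Rplp2 was called in the second only (-0.11 and 0.34), but in both with the length of all exons (-0.25 and 0.63). Rpl29 (-0.20), Rpl11 (-0.12) and Rps13 (-0.06) lost the call in the first, and Rpl36al (0.0024) in the second. Rpl5, with no call before, had -0.48 ± 0.13 (edgeR adjusted p = 0.0252) and 0.62 ± 0.13 (edgeR adjusted p = 0.000884). The largest corrected values were those of Rps20 (-0.90 and 1.45), Rpl37a (-0.59 and 0.84) and Rps15a (-0.56 and 0.98), chosen after their values were seen; the assigned transcripts of Rps20 (3706 bases) and Rps15a (5130 bases) are long. Rpl15, Rpl31, Rps7 and Rpl34, chosen likewise, turned from called higher to called lower in the second comparison. In the fit on the length of all exons only Rpl31 of these was called lower. Rpl15 (-0.11) and Rps7 (-0.11) were negative there without a call.

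With the members in 3 bins by GC content, the medians in oxLDL vs Control were -0.29, -0.43 and -0.55 from lowest to highest GC without the correction and -0.24, -0.15 and -0.12 with it. In oxLDL + pNaKtide vs oxLDL they were 0.46, 0.72 and 0.90 without and 0.36, 0.26 and 0.18 with it. The order of the bins was thus reversed by the correction while the sign of each median was kept. The part of GC content and length in the results was not tested beyond these values.

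**Figure D5:**
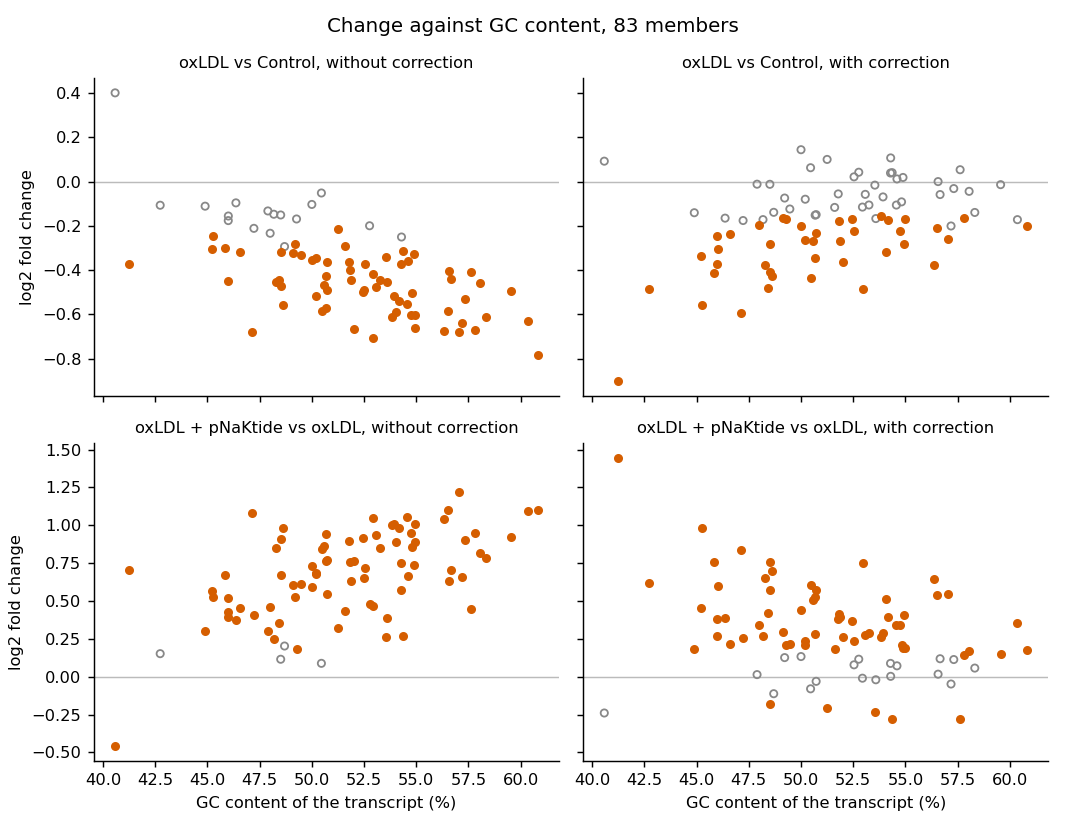
Log2 fold change of the 83 members against the GC content of their assigned transcripts (percent), for oxLDL vs Control and oxLDL + pNaKtide vs oxLDL, without and with the correction. Without it the values move further from 0 as GC content rises (r = -0.65 and 0.57).

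Rows named as pseudogenes of these genes moved as the members did. Of 223 tested, 133 were lower and none higher in oxLDL vs Control (median -0.40; 18% and 18.1% of all genes), and 178 were higher and 1 lower in oxLDL + pNaKtide vs oxLDL (median 0.70; 22.1% and 26.1% of all genes), and their share of counts went with that of the members over the 30 libraries (r = 0.997). With the correction 68 were lower and 3 higher in the first (median -0.15, where 9.65% and 9.72% of all genes were), and 114 were higher and 6 lower in the second (median 0.22, where 15.4% and 21.6% were). The part of reads shared between copies was not tested. Summing each member with its named copies gave 65 lower in the first comparison and 77 higher and 1 lower in the second.

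Ribosome components outside the symbol rule included Rack1, a scaffold on the small subunit, and Fau, made as a fusion with a ubiquitin-like protein. Rack1 had -0.54 ± 0.15 in oxLDL vs Control (edgeR adjusted p = 0.0111) and 0.66 ± 0.15 in oxLDL + pNaKtide vs oxLDL (edgeR adjusted p = 0.000558), and Fau had -0.65 ± 0.18 (edgeR adjusted p = 0.0124) and 1.09 ± 0.18 (edgeR adjusted p = 3.97e-05). With the correction Rack1 was called in both comparisons (-0.42 and 0.51) and Fau only in the second (0.28).

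Other genes of ribosome production were called in both directions. Over all genes 18% were lower and 18.1% higher in oxLDL vs Control, and 22.1% higher and 26.1% lower in oxLDL + pNaKtide vs oxLDL. Of 78 mitochondrial ribosomal protein genes, 28 were lower and 6 higher in oxLDL vs Control (median -0.16), and 48 were higher and 6 lower in oxLDL + pNaKtide vs oxLDL (median 0.32). Of 84 ribosome biogenesis genes, 23 were lower and 23 higher in the first (median 0.03), and 29 were higher and 37 lower in the second (median -0.11); Bop1, a large subunit assembly factor, had 0.79 in the second and Riok1, an assembly kinase, -0.57. Of 20 genes of RNA polymerase I and its factors, 9 were lower and 5 higher, then 8 higher and 8 lower. Of 35 genes of mTORC1, Myc and TOP control, 12 were lower and 13 higher, then 13 higher and 14 lower. Among 13 elongation and termination genes 7 were lower and 3 higher, then 7 higher and 3 lower, with Eef1g, a subunit of the elongation factor complex, at -0.55 and 0.85. Of 23 TOP messages that encode no member, 12 were lower and 5 higher (median -0.34), then 15 higher and 6 lower (median 0.50); Eif3h, an initiation factor subunit, had -0.57 in the first, and Naca, a chaperone of nascent chains, 0.50 in the second. The 6 noncoding hosts of small nucleolar RNAs that also begin with a TOP tract went otherwise, with 4 higher and none lower in the first (median 0.55) and 1 higher and 4 lower in the second (median -0.42); Snhg6 had 0.81 in the first and Snhg1 had -0.69 in the second. The correction moved these counts, with 9.65% of all genes then lower and 9.72% higher in the first, and 15.4% higher and 21.6% lower in the second. Mitochondrial ribosomal protein genes then had 15 lower and 12 higher in the first and 34 higher and 11 lower in the second, and ribosome biogenesis genes had 22 lower and 8 higher, then 25 higher and 14 lower (medians -0.03 and 0.06). The mTORC1, Myc and TOP control list had 3 lower and 8 higher, then 9 higher and 10 lower, and the RNA polymerase I list 3 lower and 3 higher, then 3 higher and 8 lower. Elongation and termination genes had 6 lower and none higher, then 8 higher and 1 lower, the other TOP messages 13 lower and 2 higher, then 16 higher and 4 lower, and the small nucleolar RNA hosts 4 higher and none lower, then none higher and 4 lower.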

How the data were processed

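RNA of 30 libraries was sequenced as paired reads from a stranded mRNA kit. The authors trimmed reads with Trimmomatic 0.38, aligned them to GRCm38 with HISAT2 2.1.0 and deposited raw counts per gene. Whether the counting used strand is not stated. The deposited FPKM values divide these counts by the library and, for 76 of 83 members (1% tolerance), by the exon union length. A table of normalized counts was not used here. Symbols, transcripts and GC content came from GENCODE M21. Counts were tested with edgeR 4.0.16 (TMM, robust quasi-likelihood, all 6 groups in one model, 20139 genes with more than 14 counts over all libraries, BH adjusted p under 0.1). CPM are TMM scaled. The correction added per-library offsets from smooth trends (mgcv 1.9.3) in GC content and log2 transcript length over 12484 genes that are no members and whose mean log2 CPM reached 1. The exon union variant used the length of all exons and fitted its trends on the protein-coding ones among such genes. The common biological coefficient of variation was 14.0%. Alternatives used DESeq2 1.42.0, limma 3.58.1 on log2(FPKM + 1), other scalings, filters and left-out libraries. No 2 libraries of a group agreed within sampling noise (60 pairs, lowest chi-square per degree of freedom 1.30). The fits were tested on simulated data. Genes named were 19 chosen by role, the 3 highest and 3 lowest by median FPKM, and up to 3 members in each direction per comparison of largest change among called members whose groups did not overlap. From other lists, the genes of smallest adjusted p were eligible. Members and lists were chosen with earlier results of these data known. Some items are not reported here.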

Additional observations from a re-analysis of the deposited data

Results flagged for a closer look

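In a group of 5 libraries, 1 library was taken to stand apart where its gap to the nearest other, divided by the range of the group, exceeded 0.71. Chance gives this in about 1 in 20 groups, and 180 groups of values were looked at. The members' share of all counts stood apart in IS (ratio 0.763, replicate 4) and in oxLDL + pNaKtide (ratio 0.899, replicate 4). In IS, 22 named members had a library apart, with ratios from 0.734 (Rps27) to 0.925 (Rpl36al). In oxLDL + pNaKtide there were 14, from 0.716 (Rplp2) to 0.867 (Rpl24), in IS + pNaKtide 9, from 0.730 (Rpl5) to 0.902 (Rpl22), and in Control 3, from 0.711 (Rps3) to 0.750 (Rpl29). In oxLDL there were 2, Rpl13 (0.720) and Rpl36a (0.923), and with pNaKtide alone 1, Rpl13 (0.801).

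The effect of pNaKtide differed by a test of the difference itself. Between cells with and without oxLDL, the effect was higher for 54 members (edgeR; 12.8% of all genes higher), 24 with the GC content and length correction and 19 without oxLDL + pNaKtide replicate 4. Of the 54, 18 are named members, with log2 differences from 0.41 (Rpl35a) to 0.94 (Rpl13). Between oxLDL and IS treated cells, it was higher for 69 members (edgeR; 13.9% of all genes higher), and 37 with the correction. Of the 69, 22 are named, from 0.44 (Rpl36a) to 1.07 (Rps2).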

How the results depend on the processing

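With 27 alternatives for each comparison of 2 groups, oxLDL + pNaKtide vs oxLDL had between 62 and 81 members called in either direction, oxLDL vs Control between 40 and 75, and pNaKtide vs Control and IS + pNaKtide vs IS 0 in each. For oxLDL vs Control the count was 41 with the GC content and length correction and 40 with it on exon union length. For IS vs Control (2) it was 1 with RLE factors, 15 with a filter in every library, 0 with 1 count as the minimum, 13 with edgeR's own filter, 19 with DESeq2, 0 at an adjusted p of 0.05, 0 with GC content alone, 19 with length alone, 10 with limma on FPKM, 0 with only the compared groups, 1 with copies summed, 1 with the exon union correction and 76 without both Control 1 and IS 4. For oxLDL + pNaKtide vs Control (9) the counts in that order of settings were 14, 34, 5, 30, 36, 2, 30 (GC content alone), 28 (limma), 0 (compared groups), 27 (exon union) and 16, with 16 for library size and 23 for the correction. For IS + pNaKtide vs Control (0) they were 4 with DESeq2, 3 with the correction and with length alone, 6 with the compared groups, 2 with exon union and 58 without both libraries. The difference from cells without oxLDL (54) gave 29 with library size, 30 at 0.05, 24, 27, 35 and 27 with the correction, GC content alone, length alone and exon union, and the difference from IS treated cells (69) gave 37 and 42 with the correction and exon union. Without the 100 most counted genes the shares were 4.33% in Control, 4.84% with pNaKtide, 3.74% with IS, 3.86% with IS + pNaKtide, 3.44% with oxLDL and 5.11% with oxLDL + pNaKtide. Leaving out 1 library at a time gave 48 to 72, 0 to 72, 73 to 79, 2 to 25 and 0 to 34 calls for oxLDL vs Control, IS vs Control, oxLDL + pNaKtide vs oxLDL, oxLDL + pNaKtide vs Control and IS + pNaKtide vs Control, 19 to 73 and 58 to 71 for the differences, and shares of 3.20 to 3.46%, 3.58 to 3.79%, 2.67 to 2.98%, 2.86 to 3.00%, 2.57 to 2.72% and 3.56 to 3.86% in the group order above. Same-numbered libraries were not paired in the main fit, because their correlations did not all exceed 0.1. For oxLDL vs Control they ran from -0.48 to 0.58, with 3 of 5 pairs over 0.1. This rule cannot show that same-numbered libraries had nothing in common. A replicate block gave 69, 28, 79, 30 and 2 calls in the comparison order above and 62 and 69 for the differences. Over all 83 members, 11 signs turned in each of oxLDL vs Control and oxLDL + pNaKtide vs oxLDL with the correction, and 5 and 8 with exon union. Among the named members, signs turned in oxLDL vs Control for Rps27l (0.018), Rpl5 (0.023) and Rps12 (0.027) with library size, Rpl36al (0.11), Rps12 (0.14) and Rpl21 (0.042) with the correction, Rpl22l1 (-0.14) with GC content alone, Rps27l (0.12) and Rps12 (0.14) with length alone, and Rpl22l1 (-0.0088), Rpl36al (0.10) and Rps12 (0.023) with exon union. In oxLDL + pNaKtide vs oxLDL they turned for Rpl5 (-0.067), Rpl22 (-0.037) and Rpl39 (-0.020) with library size, Rps27 (-0.031), Rpl11 (-0.0098), Rpl39 (-0.11) and Rpl29 (-0.048) with the correction, Rpl22l1 (0.22) with GC content alone, Rps27l (-0.14), Rpl36a (-0.0015) and Rpl39 (-0.20) with length alone, and Rpl39 (-0.016) and Rpl29 (-0.057) with exon union. The cause of these changes was not tested. The fits on copies, without both libraries and on exon union length were added after seeing the data.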
